A study of Caenorhabditis elegans with 12 samples.

Results

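The peaks of KLF-1-YFP on the X chromosome of *Caenorhabditis elegans* were analysed by ChIP-seq, chromatin immunoprecipitation followed by sequencing, in which a peak is a stretch of genome with more reads in the pulled-down DNA than in the input. All peaks that the 6 deposited peak lists place on chromosome X were taken, with no threshold, which gave 482 peaks of 3116 in all (15.5%). They are compared with the 2072 peaks of the same lists on autosomes II, III, IV and V, which number 438, 607, 473 and 554. KLF-1 fused to YFP was driven by the intestinal *vha-6* promoter in both groups, in otherwise wild-type animals (ATR4081, here WT) and in *isp-1(qm150);ctb-1(qm189)* double mutants (ATR4082), which carry changes in a pair of subunits of respiratory complex III. The integrated transgene of ATR4082 came from ATR4081 by crossing, so both groups share 1 insertion. Whole animals were taken on day 1 of adulthood from bacteria holding the empty L4440 plasmid, and each strain gave 3 ChIP libraries and 3 matched inputs. KLF-1-YFP was thus made in the intestine while chromatin came from every tissue, and no ChIP from animals without the fusion was analysed here. Whether replicates were grown as separate cultures is not stated. P-values here therefore measure only the spread between these samples, which may be technical.

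Krüppel-like factors are transcription factors that bind DNA through zinc fingers and commonly contact GC-rich or CACCC-like motifs near promoters. *C. elegans* hermaphrodites carry the X chromosome in the same copy number as the autosomes, and a condensin-based dosage compensation complex lowers its transcription in their somatic cells. The X is known for holding the genes of most yolk proteins, which the adult intestine makes in large amounts, and for having few genes that are active in the germline.

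Some facts of the lists touch the X results. The 3 ChIP libraries of the mutant were each sequenced deeper than the 3 of WT, so strain and depth cannot be told apart. No peak of chromosome III carried an assigned gene (EnsemblID) in any list, 0 of 607, whereas the other nuclear chromosomes had one for 60.6 to 70.8% of their peaks. The fold enrichment over input, the authors' value for each peak, is set by each library and is therefore read here within a list. Each list also held a long peak on mitochondrial DNA (mtDNA), whose fold was 2.06, 2.01 and 1.89 in WT replicates 1 to 3 and 1.33, 1.45 and 1.66 in those of the mutant. Of the X peaks, 23.5, 26.6 and 21.3% in WT and 15.2, 45.3 and 23.2% in *isp-1;ctb-1* lay within 5% of that fold, and on chromosomes II to V these shares were 27.1, 30.6, 20.8, 13.5, 33.96 and 25.9%.

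X held slightly fewer peaks per Mb than the autosomes in 5 of 6 libraries, by a margin smaller than the spread between libraries. The WT lists placed 85, 109 and 61 peaks on it and the *isp-1;ctb-1* lists 92, 53 and 82. This came to 4.80, 6.15 and 3.44 peaks per Mb in WT and 5.19, 2.99 and 4.63 in *isp-1;ctb-1*. Replicates of 1 strain differed more than the strains did. Averaged over the 6 libraries, the density was 4.53 ± 1.16 per Mb (SD, n = 6) on X and 5.12 ± 1.48 on chromosomes II to V. The log2 ratio of X to autosomes was -0.15 ± 0.27, below 0 in 5 of 6 libraries, and a two-sided exact sign-flip permutation test over the libraries gave p = 0.25 (0.40 after Benjamini-Hochberg adjustment over the 8 measures compared in this way). Without WT replicate 3, the library in which X was the denser, the log2 ratio was -0.25 ± 0.12, below 0 in 5 of 5 libraries (exact sign-flip permutation p = 0.0625, the smallest that 5 can give). With peaks of a list within 10000 bp of each other counted once, it was -0.23 ± 0.12, below 0 in 6 of 6 libraries (exact sign-flip permutation p = 0.03125, 0.083 adjusted). Much of the difference lay with chromosome III, the chromosome with most peaks per Mb in 5 of 6 libraries. Against chromosomes II, IV and V alone, a comparison added after the data were seen, the log2 ratio was 0.0040 ± 0.19 (exact sign-flip permutation p = 0.91). At a fold over 1.5 and a deposited p under 0.05, which only peaks with an EnsemblID can pass, chromosome III had no peaks left. Its length was still counted among the autosomes, which lowers their density. The log2 ratio of 0.14 in that setting therefore cannot be set beside the others.

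**Figure D1:**
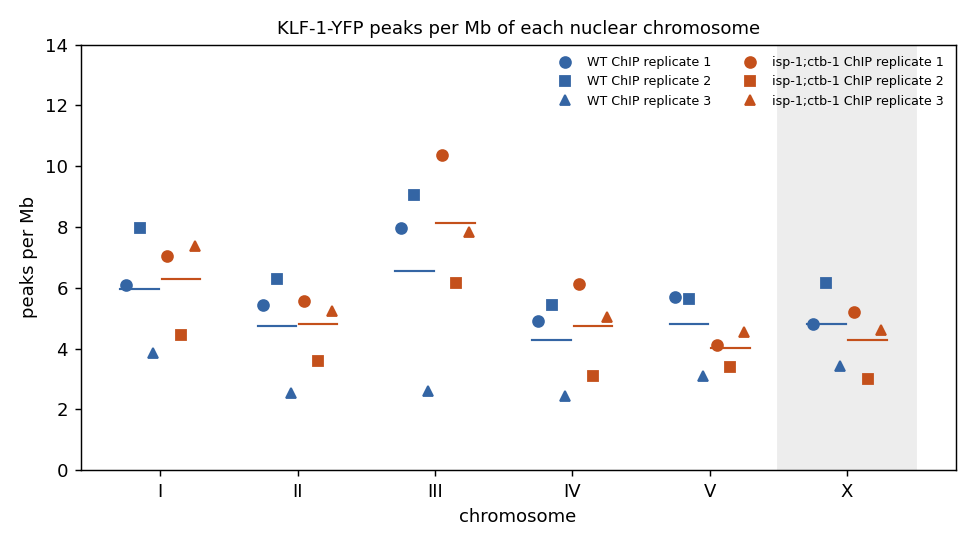
Peaks per Mb (vertical axis) of each nuclear chromosome (horizontal axis, X shaded) in the 6 ChIP libraries, with short lines at the mean of each strain. On X the libraries run from 2.99 to 6.15 peaks per Mb, within the spread of the other chromosomes, and chromosome III reaches the highest values.

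In every library, X peaks lay away from protein-coding genes more often than autosomal peaks did. The share of X peaks with no protein-coding gene within 2000 bp on either side was 60.0, 61.5 and 60.7% in WT and 28.3, 45.3 and 42.7% in *isp-1;ctb-1*. On chromosomes II to V it was 43.0, 44.9 and 39.9% in WT and 18.8, 34.7 and 31.3% in *isp-1;ctb-1*. X was above the autosomes in 6 of 6 libraries and had the highest share of the 5 chromosomes in each of them. The mean difference was 14.3 ± 4.46 percentage points (exact sign-flip permutation p = 0.03125, the smallest that 6 libraries can give, and 0.25 after adjustment over the 8 measures, so that it does not pass the threshold of 0.05). The 3 WT differences (16.5 to 20.8 points) and the 3 *isp-1;ctb-1* differences (9.50 to 11.4 points) did not overlap, and the exact permutation test of 3 against 3 libraries gave p = 0.1, the smallest it allows. At 5000 bp in place of 2000 bp the difference was 1.63 ± 6.08 points, positive in 3 of 6 libraries (exact sign-flip permutation p = 0.59). X is also poorer in genes, with 154 protein-coding genes per Mb against 188 to 239 on chromosomes II to V, and 17.4% of its bases have no protein-coding gene within 2000 bp, against 11.6% on II to V (9.98, 10.3, 15.7 and 10.04% on each). The part of gene density in the difference between peaks was not tested.

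The share of X peaks with an assigned gene did not overlap between the strains. In the WT lists 47.1, 42.2 and 49.2% of X peaks had an EnsemblID (40 of 85, 46 of 109 and 30 of 61 peaks, with 95% Wilson intervals of 36.8 to 57.6, 33.4 to 51.6 and 37.1 to 61.4%, which cover counting error only). Among the mutant lists it was 91.3, 71.7 and 65.9% (84 of 92, 38 of 53 and 54 of 82, with intervals of 83.8 to 95.5, 58.4 to 82.0 and 55.1 to 75.2%). Their means were 46.1 ± 3.58% and 76.3 ± 13.3% (n = 3 each, exact permutation p = 0.1, the smallest possible, 0.20 after adjustment over 4 strain comparisons). On chromosomes II, IV and V the same share was 62.5, 62.1 and 60.5% in WT and 79.9, 63.9 and 66.5% in *isp-1;ctb-1*. The X minus autosome difference was thus -19.9 to -11.4 points in WT and -0.69 to 11.4 points in *isp-1;ctb-1* (exact permutation p = 0.1 for the difference between strains). Over the 6 libraries the difference was -4.69 ± 12.8 points (exact sign-flip permutation p = 0.38). With chromosome III among the autosomes it was 14.3 ± 16.8 points (p = 0.125 in the same exact test, 0.33 adjusted), a value that the missing assignments of chromosome III turn in sign.

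**Figure D2:**
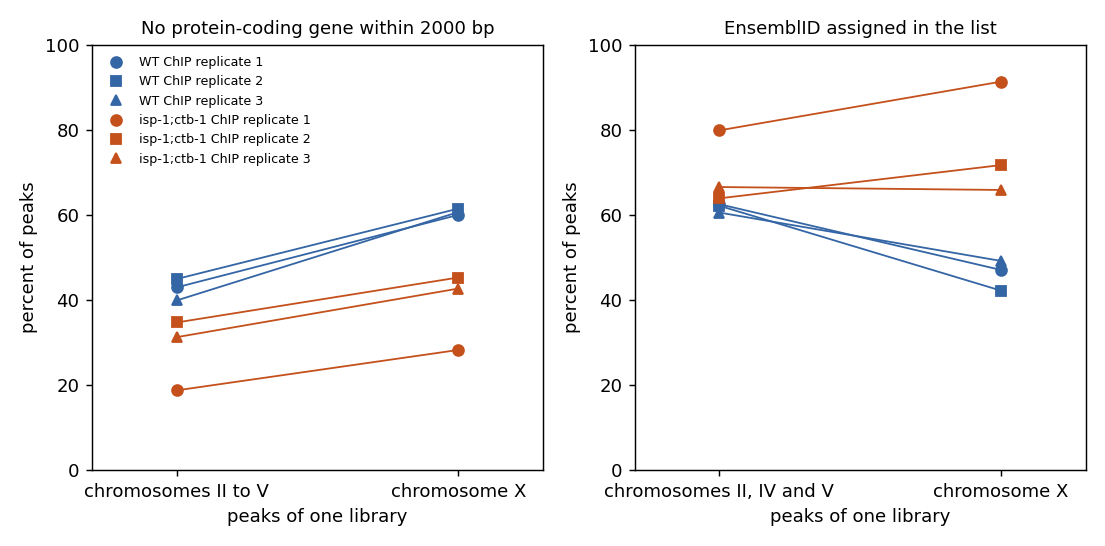
Percent of peaks (vertical axis) on the autosomes and on X in each library, with a line joining the values of 1 library. On the left, the share without a protein-coding gene within 2000 bp rises from the autosomes to X in all 6 libraries. On the right, the share with an EnsemblID falls from chromosomes II, IV and V to X in the 3 WT libraries and spreads from 65.9 to 91.3% on X in *isp-1;ctb-1*.

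The assigned genes themselves lay upstream of the gene start or under the peak. The lists paired X peaks with genes 439 times, for 156 EnsemblIDs, of which 148 were protein-coding, 7 miRNA genes and 1 a lincRNA. The peak overlapped the gene in 81 pairs and lay upstream of it in 358, and none lay downstream. The largest distance was 4886 bp. These pairs differ from the stated assignment, which took genes on both sides of a peak within 2000 bp, so the share with an EnsemblID is not the share with a gene within that distance. Distances over 2000 bp made up 52.9% of the X pairs of WT lists and 40.1% of those of *isp-1;ctb-1*, against 49.6 and 39.2% on chromosomes II, IV and V. The X genes named in the lists numbered 146 by symbol. Of these, 24 appeared in WT lists alone, 89 in *isp-1;ctb-1* lists alone and 33 in lists of both strains, 13 appeared in all 6 lists, and 70 appeared in a single list. Chromosomes II, IV and V leaned to the *isp-1;ctb-1* lists in a like way, with 15.7% of their 599 gene symbols in WT lists alone, 55.8% in *isp-1;ctb-1* lists alone and 28.5% in both, beside 16.4, 61.0 and 22.6% on X.

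Peaks were unevenly spread along X, and single autosomes were uneven too. When the chromosome was divided into 10 equal segments, the leftmost held 18.4 ± 3.61% of a library's X peaks (mean and SD of 6 libraries, range 12.8 to 22.6%), against 10.1 ± 2.46% for the leftmost segments of chromosomes II to V. The segments 4 and 8 were nearly empty, with 3.14 ± 0.98% and 3.04 ± 2.03% of X peaks, where II to V had 10.7 ± 2.24% and 9.35 ± 2.43%. In no library did segment 4 hold more than 4 X peaks, nor segment 8 more than 5. These segments were picked after their values were seen and were not tested. With 3 equal segments, the middle one held 29.4, 33.0 and 41.0% of X peaks in WT and 21.7, 28.3 and 28.05% in *isp-1;ctb-1*. The mean was 30.3 ± 6.398% on X and 34.03 ± 2.00% on II to V (difference -3.78 ± 5.68 points, exact sign-flip permutation p = 0.19, 0.38 adjusted), and 35.8% of the protein-coding genes of X lie there. Without WT replicate 3 the difference was -5.96 ± 2.18 points, below 0 in 5 of 5 libraries (exact sign-flip permutation p = 0.0625). With chromosome I added to the autosomes it was -0.36 ± 7.54 points over the 6 libraries, below 0 in 4 of them (exact sign-flip permutation p = 0.91).

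**Figure D3:**
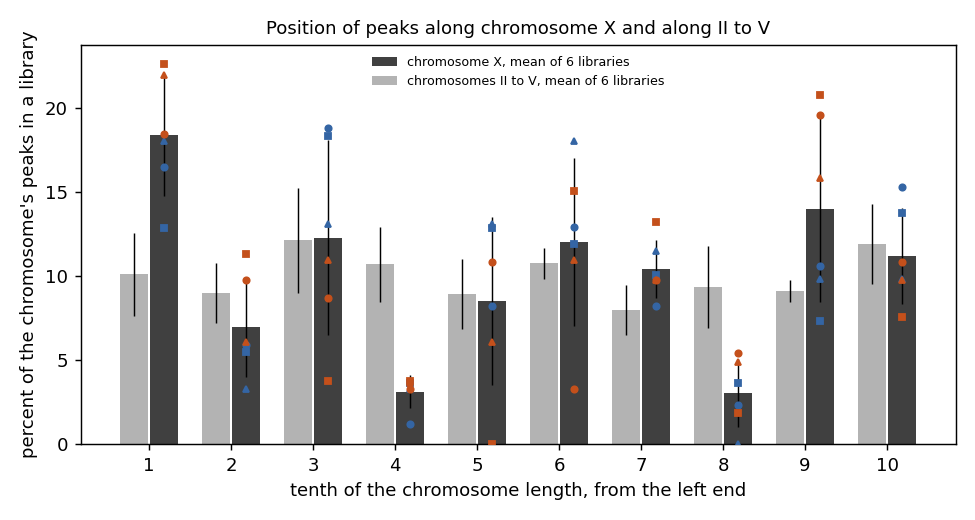
Percent of a library's peaks (vertical axis) in each of 10 equal segments of the chromosome length (horizontal axis), on X (dark bars) and pooled over II to V (light bars), with bars at the mean of 6 libraries, error lines of 1 SD and coloured points for the X values of each library. The first X segment reaches 18.4% and segments 4 and 8 stay near 3%, while the light bars lie between 8.0 and 12.1%. Pooling 4 chromosomes evens out the light bars.

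In most other properties the 6 libraries showed no clear difference between X peaks and autosomal ones, which does not show that they are alike. Their median width was 452, 429 and 389 bp in WT and 285, 376 and 342 bp in *isp-1;ctb-1*. The mean of these medians was 379 ± 60.2 bp on X and 387 ± 58.9 bp on II to V (log2 ratio -0.03 ± 0.22, exact sign-flip permutation p = 0.72). X peaks were narrower in each *isp-1;ctb-1* library than in any WT library, at 334 ± 45.98 against 423 ± 31.9 bp (exact permutation p = 0.1, the smallest possible, 0.20 adjusted), and the autosomes II, IV and V showed 342 ± 35.6 against 431 ± 58.3 bp. An X peak was met, by at least 1 bp, in 2.72 ± 0.68 of the 5 other libraries and an autosomal one in 2.63 ± 0.79 (exact sign-flip permutation p = 0.50). The mean rank of the fold within a list, on a scale of 0 to 100 per cent, was 47.3 ± 3.62 on X and 50.7 ± 0.83 on II to V (difference -3.45 ± 4.01, lower in 5 of 6 libraries, exact sign-flip permutation p = 0.125, 0.33 adjusted). Without WT replicate 3 this difference was -5.06 ± 0.82, lower in 5 of 5 libraries (exact sign-flip permutation p = 0.0625). Against II, IV and V alone it was -2.08 ± 3.40 over the 6 libraries (exact sign-flip permutation p = 0.22). The highest X folds of the 6 lists were 2.43, 2.48 and 2.17 in WT and 3.06, 2.32 and 2.41 in *isp-1;ctb-1*.

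X peaks often came in groups. Another peak of the same list lay within 10000 bp of 75.3, 76.1 and 80.3% of X peaks in WT and of 26.1, 50.9 and 58.5% in *isp-1;ctb-1*. On chromosomes II to V the shares were 71.6, 72.8 and 65.0% in WT and 38.5, 61.1 and 57.95% in *isp-1;ctb-1*. The X minus autosome difference was 3.34 to 15.3 points in WT and -12.4 to 0.59 points in *isp-1;ctb-1*. Over all 6 libraries the difference was 0.05 ± 10.2 points (exact sign-flip permutation p = 1), and the difference between the strains gave an exact permutation p = 0.1. The mean share was lower in *isp-1;ctb-1* than in WT on every one of these chromosomes, with differences of -11.8, -23.2, -19.8 and -13.6 points on II, III, IV and V and -32.1 points on X.

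Peaks were then merged over the 6 lists where they shared at least 1 bp, which gave 175 X regions of 1216 nuclear ones. Of the X regions, 79 (45.1%) had a peak in 1 library, against 49.6% on II to V. A peak in all 6 libraries was found in 12 (6.86%, with 6.99% of the regions of every chromosome). Both strains held 31 (17.7%, against 15% of all regions), where holding means a peak in 2 or 3 of a strain's libraries. Recurrence on X was therefore close to that of the whole genome. These counts depended on single libraries. Without *isp-1;ctb-1* replicate 1 the regions in 1 library fell to 52 and those in every remaining library rose to 26, and the regions of both strains numbered 17 without *isp-1;ctb-1* replicate 2 and 14 without *isp-1;ctb-1* replicate 3. Leaving out peaks within 5% of the mtDNA fold gave 2 regions in all 6 libraries and 13 in both strains.

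The X regions found in all 6 libraries were broad, as on II to V, with median widths of 1638 and 1584 bp. Merging peaks over 6 lists adds to such widths. Of the 12 X regions, 7 lacked a protein-coding gene within 2000 bp (22 of 57 on II to V). The widest, from 109568 to 114302 (WBcel235, 4735 bp), lay near *elk-2* and the F-box gene *fbxa-221*. Its fold was 2.05, 2.01 and 1.88 in WT and 1.36, 1.46 and 1.65 in *isp-1;ctb-1*, within 5% of the mtDNA peak in every library. A region from 291904 to 295290 next to *dbd-18* followed the same course, with 2.06, 2.00 and 1.86 in WT and 1.35, 1.45 and 1.67 in *isp-1;ctb-1*. A region from 5056223 to 5057315 over the pseudogene Y64H9A.1 had 2.16, 2.08 and 1.85 in WT and 1.38, 1.49 and 1.65 in *isp-1;ctb-1*. In 6 of the 12 regions more than 50% of the libraries had a peak within 5% of the mtDNA fold, as in 32 of 57 on II to V. What this shared fold reflects was not tested.

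Of the 12, the region that ranked best within the lists lay from 16758428 to 16760098, 2731 bp from C10E2.1. It showed 2.25, 2.20 and 1.83 in WT and 1.83, 1.64 and 1.86 in *isp-1;ctb-1*, above the mtDNA fold in 5 libraries and below it in WT replicate 3. Next came a region of 2878 bp from 1752252 to 1755129 beside the pseudogene Y75D11A.1, with 2.25, 2.20 and 1.84 in WT and 1.55, 1.59 and 1.82 in *isp-1;ctb-1*. A pair of neighbouring regions, from 11786328 to 11787932 and from 11788159 to 11789566, lay near Y102F5A.1 and the miRNA gene *mir-239.2*. Their folds ran from 1.78 to 2.03 in WT and from 1.28 to 1.63 in *isp-1;ctb-1*. The remaining named members lay near Y7A5A.7 (15807588 to 15811262, 3675 bp), Y62H9A.7 (11886508 to 11888278) and the tRNA pseudogenes Y47C4A.t1 and Y47C4A.t2 (289895 to 290982). A region at the very left end of the chromosome, from 1 to 349, had a peak in all 3 WT libraries (1.95, 1.78 and 1.69) and in *isp-1;ctb-1* replicate 3 (1.60), and was chosen after its values were seen.

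Many X peaks of the WT libraries lay in a few short tracts. Regions with gaps of at most 10000 bp were chained, and 6 chains on X held 5 or more regions each, 50 of the 175 X regions in all (28.6%, against 27.3% on II to V). The chains spanned 4.91 to 29.7 kb and 69.7 kb together, and 42 of their 50 regions had no protein-coding gene within 2000 bp. Peaks inside them made up 45.9, 49.5 and 42.6% of the X peaks of the WT lists and 4.35, 11.3 and 19.5% of those of the *isp-1;ctb-1* lists. Of the 50 regions, 33 (66.0%) had peaks in WT libraries alone and 0 in *isp-1;ctb-1* libraries alone. Over all X regions these classes numbered 58 (33.1%) and 66 (37.7%) of 175. The tracts of II to V, 25 chains built in the same way with 226 regions, had the same lean, with 159 regions (70.4%) in WT alone and 13 (5.75%) in *isp-1;ctb-1* alone. They held 38.9, 42.6 and 21.3% of the II to V peaks of the WT lists and 6.65, 13.96 and 15.4% of those of the *isp-1;ctb-1* lists. Outside the chains, 82.6, 80.0 and 80.0% of the X peaks carried an EnsemblID in WT and 93.2, 78.7 and 80.3% in *isp-1;ctb-1*, and the strains overlapped. The chains were built from the same peaks and chosen after their values were seen, so these shares carry no test.

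The chain with most regions ran from 4026101 to 4055781, between *acr-10*, which encodes an acetylcholine receptor subunit, and T06F4.1. It held 18 regions, 15 of them without a protein-coding gene within 2000 bp, and no EnsemblID was assigned to any. The WT libraries had 13, 16 and 7 peaks there and the *isp-1;ctb-1* libraries 0, 1 and 5. A chain from 7351575 to 7361257 with 9 regions, none near a protein-coding gene, had 7, 13 and 8 WT peaks and 1, 0 and 4 *isp-1;ctb-1* peaks. At the right end, a chain from 17442068 to 17447641 had 7, 8 and 4 peaks in WT and 2, 1 and 2 in *isp-1;ctb-1*. The WT libraries were above every *isp-1;ctb-1* library in each of these 3 chains. The chain from 10361121 to 10369190 had 6, 8 and 5 against 0, 2 and 3 peaks. In the chains from 5045483 to 5057315 and from 14384884 to 14389790 the counts were lower and the strains met, at 2, 4 and 1 against 1, 1 and 1 and at 4, 5 and 1 against 0, 1 and 1.

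**Figure D4:**
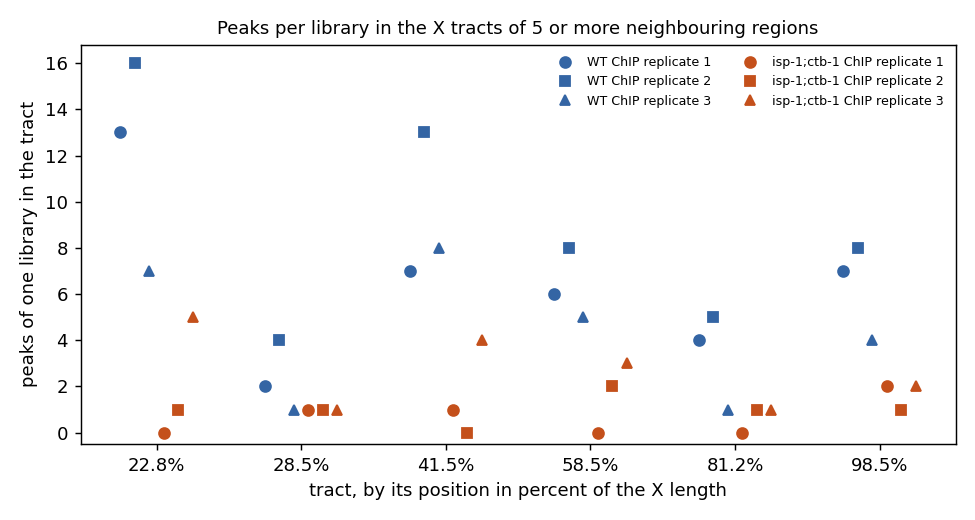
Number of peaks of each library (vertical axis) in the 6 X tracts of 5 or more neighbouring regions, placed by their position in percent of the chromosome length (horizontal axis). WT points reach 16 peaks in the tract at 22.8% of the length, where the *isp-1;ctb-1* libraries have 0, 1 and 5, and the strains meet in the tracts at 28.5 and 81.2%.

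All 3 WT libraries and none of *isp-1;ctb-1* had a peak in 9 X regions (5.14%, with 3.12% of the regions of every chromosome). Of these, 8 (88.9%) had no protein-coding gene within 2000 bp, against 8 of 24 (33.3%) on II to V. Several of the 8 are neighbours in the *acr-10* chain and so are not separate places. The best ranked lay from 7352460 to 7353059, 7909 bp from C07D8.5, with a fold of 2.14, 1.82 and 2.04. The other named ones had a mean fold of 1.66 to 1.75 and lay from 4045368 to 4045843, from 4041906 to 4042258 and from 4034958 to 4035460 in the *acr-10* chain, from 10366824 to 10368124, and from 17445903 to 17446533. Their folds were below the mtDNA fold of each WT library, as were the median folds of X peaks there (1.84, 1.82 and 1.69). The 1 region of the 9 with genes nearby, from 9438745 to 9439164, lay near *tbb-4*, a beta-tubulin gene, and *memb-1*, with a fold of 1.54, 1.69 and 1.42, and was named after its values were seen. In the wider class of regions held by WT and not by *isp-1;ctb-1*, 26 of 40 on X (65.0%) and 68 of 143 on II to V (47.6%) had no protein-coding gene within 2000 bp. The count of 9 became 23 without WT replicate 3, 15 without *isp-1;ctb-1* replicate 3, and 3 at a fold over 1.5 and a deposited p under 0.05 in lists that had lost peaks without a gene.

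The reverse class lay next to genes, on X as on the other chromosomes. All 3 *isp-1;ctb-1* libraries and none of WT had a peak in 6 X regions (3.43%, with 4.93% over every chromosome). Of the 6, 0 lacked a protein-coding gene within 2000 bp, beside 2 of 38 on II to V and 3 of 60 over every chromosome. The region from 16612254 to 16612933 lay 518 bp from *ain-1*, which encodes a GW182-family partner of Argonaute proteins in the miRNA-induced silencing complex, and had a fold of 2.16, 2.15 and 1.99. From 13145159 to 13145509, over F09A5.3 and within 2000 bp of the miRNA genes *mir-54*, *mir-55* and *mir-56* of the miR-51 family, it was 2.13, 1.90 and 2.13. From 6091926 to 6092358, 141 bp from *hsp-3*, a gene for the endoplasmic reticulum chaperone BiP, it was 1.84, 2.06 and 2.24. All of these values were above the mtDNA fold of their library, as were the median folds of X peaks in these libraries (1.87, 1.49 and 1.69).

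The other 3 regions of this class also adjoined protein-coding genes. A region from 3127532 to 3127985 near *spc-1*, the alpha-spectrin gene, had a fold of 1.97, 1.93 and 2.04. Beside *epn-1*, which encodes the endocytic adaptor epsin (14818725 to 14819156), the fold was 2.16, 1.70 and 1.82. The third, from 3099905 to 3100127, lay near *sec-3*, a gene for an exocyst subunit, and *ztf-13*, a zinc finger gene, with 1.84, 1.86 and 2.16. In the wider class held by *isp-1;ctb-1* and not by WT, 1 of 23 regions on X (4.35%) and 15 of 130 on II to V (11.5%) had no protein-coding gene within 2000 bp. The count of 6 became 16 without *isp-1;ctb-1* replicate 2, and at a fold over 1.5 and a deposited p under 0.05 it was 0. Since the *isp-1;ctb-1* libraries were the deeper ones, a place with no peak in a WT library is not shown to lack signal there.

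**Figure D5:**
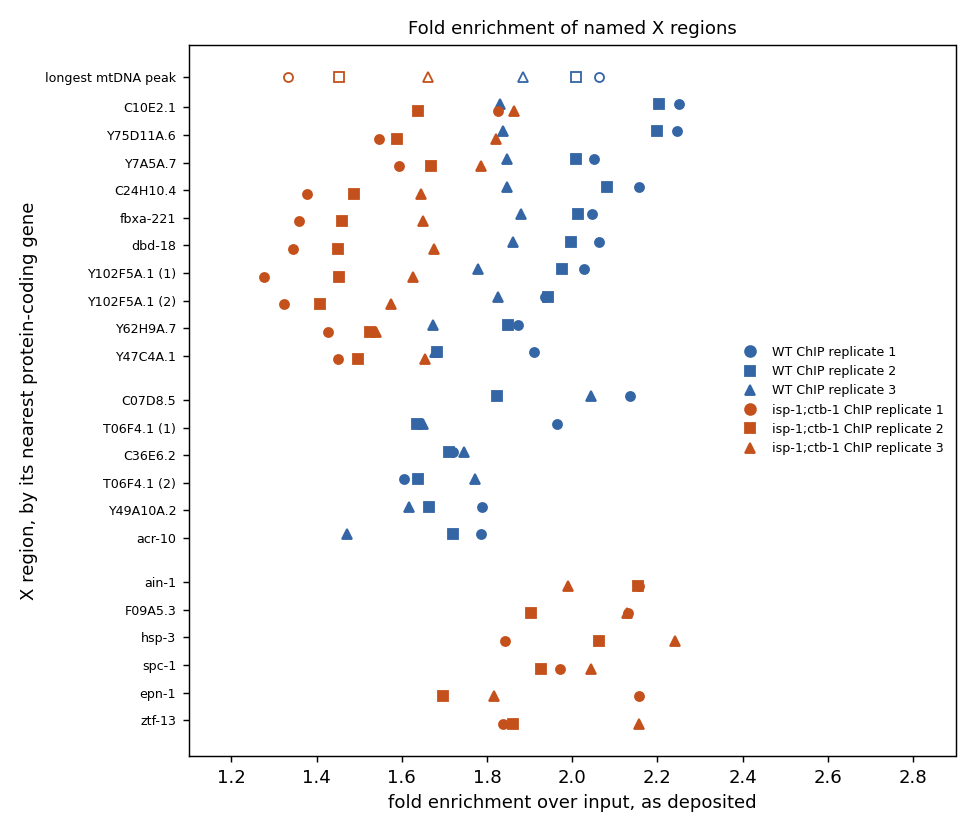
Deposited fold enrichment over input (horizontal axis) of named X regions (vertical axis, by nearest protein-coding gene) in each library, with the longest mtDNA peak in open symbols at the top. The upper 10 regions have a peak in all 6 libraries and mostly track the mtDNA fold, the middle 6 have peaks in the WT libraries alone and the lower 6 in the *isp-1;ctb-1* libraries alone. Folds of different libraries are not on a common scale.

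Several X genes that the study lists had peaks in most *isp-1;ctb-1* libraries and in fewer WT libraries. The study describes its list of ChIP targets as shared by N2 and *isp-1;ctb-1*, whereas some of its X genes had peaks here in a single strain. At *ftt-2*, which encodes a 14-3-3 protein, the region from 11605599 to 11606481 had a fold of 2.03 and 2.01 in WT replicates 1 and 2, no peak in WT replicate 3, and 2.65, 2.02 and 2.41 in *isp-1;ctb-1*. At *bet-2*, a gene for a BET-family bromodomain protein (10568332 to 10569140), only replicate 2 of WT had a peak (1.98), and *isp-1;ctb-1* had 2.47, 1.79 and 2.16. At *kin-29*, a salt-inducible kinase gene (2852348 to 2852825), replicates 1 and 3 of *isp-1;ctb-1* had peaks of 2.55 and 2.13 and WT had none. The region with the highest fold on X, from 16929398 to 16930191, 1235 bp from C30E1.4, reached 3.06, 2.32 and 2.41 in *isp-1;ctb-1* and 2.21 and 1.84 in WT replicates 1 and 2, with no peak in WT replicate 3, and was named after its values were seen. Each of these regions was called in more *isp-1;ctb-1* than WT libraries.

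Others rested on 1 library, leaned to WT or were called in all 6 libraries. Regions at *eef-1A.2*, a gene for translation elongation factor 1-alpha (2.38), at F13C5.2 (2.33) and at F40B5.2 (2.38) were called in *isp-1;ctb-1* replicate 1 alone. Near *rgs-8.1*, which belongs to a family of regulators of G protein signalling, only WT replicates 1 and 2 had a peak (1.45 and 1.34, both under a fold of 1.5). Its neighbour *rgs-8.2* (1945507 to 1946171) had 1.71, 1.72 and 1.61 in WT and 1.49 and 1.72 in *isp-1;ctb-1* replicates 2 and 3. The lists assign both gene symbols to both regions, so by symbol this gene pair stands in 3 WT and 2 *isp-1;ctb-1* lists. Regions near Y48D7A.1 and B0403.6 were likewise found in all WT libraries and in *isp-1;ctb-1* replicates 2 and 3. The same held for regions near Y47C4A.t2 (291088 to 291850) and Y102F5A.1 (11785713 to 11786277). Some regions described above with a peak in all 6 libraries also lie at genes of the study's list. These are the ones near *elk-2* and *fbxa-221*, Y75D11A.1, Y47C4A.t1 and the pair near Y102F5A.1.

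Genes that might be looked for on X were mostly not near a peak, like most protein-coding genes of X. Of all protein-coding genes of X, 136 of 2730 (4.98%) lay within 2000 bp of a region called in any library, against 874 of 14364 (6.08%) on II to V. At so low a share, short lists would mostly have a count of 0, so the counts below say little about these genes. The 5 yolk protein genes *vit-1* to *vit-5* had 0 such regions, as did the intestinal GATA factor genes *elt-2* and *elt-4* and the 6 X-linked genes of dosage compensation and X counting (*sdc-1*, *sdc-2*, *xol-1*, *sex-1*, *fox-1* and *ceh-39*). Among detoxification genes on X, 0 of 7 cytochrome P450 (*cyp*), 0 of 4 UDP-glucuronosyltransferase (*ugt*) and 0 of 3 glutathione S-transferase (*gst*) genes had one. Nuclear hormone receptor genes had 2 of 23 (*nhr-3* and *nhr-48*), collagen genes 1 of 27 (*col-41*) and ribosomal protein genes 1 of 2 (*rpl-11.2*), each in *isp-1;ctb-1* replicate 1 alone with folds of 1.76, 2.21, 1.94 and 2.03. C-type lectin genes had 0 of 3, and markers of muscle and of hypodermis 0 of 2 each. No list member on X lay near a region that either strain held. The share of all X genes near such regions is not given here. No neuronal or germline marker of the lists and no gene of the injected plasmids is on X.

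Few X regions lay next to non-coding genes. Within 500 bp, 71 of 175 X regions (40.6%) had a protein-coding gene, against 51.6% on II to V. X carries 276 tRNA genes, 15.6 per Mb against 4.001 per Mb on II to V, and 3 of 175 X regions (1.71%) lay within 500 bp of one, each called in a single library, against 3 of 827 (0.363%) on II to V. A pseudogene was that close to 7 X regions (41 on II to V), an miRNA gene to 1, a snoRNA gene to 1 and a gene annotated as another ncRNA to 19 (10.9%, against 11.6%). No annotated gene of any kind lay within 500 bp of 91 X regions (52.0%), against 39.2% of those on II to V.

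The number of X peaks did not separate the strains. WT had 85.0 ± 24.0 and *isp-1;ctb-1* 75.7 ± 20.3 X peaks per library (n = 3 each, exact permutation p = 0.6). As a share of the library they were 14.7, 16.4 and 20.1% in WT and 14.8, 13.7 and 14.5% in *isp-1;ctb-1*, and the ranges overlapped (means 17.1 ± 2.77 and 14.4 ± 0.57%, exact permutation p = 0.2, 0.27 adjusted). Single libraries moved both differences. The share differed by -2.72 points (*isp-1;ctb-1* minus WT), and by -1.20 points without WT replicate 3. The number differed by -9.33 peaks, and by -21.3 without WT replicate 3, -17.5 without *isp-1;ctb-1* replicate 1, 2.67 without WT replicate 2 and 2 without *isp-1;ctb-1* replicate 2.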

How the data were processed

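KLF-1-YFP ChIP-seq peak lists of 3 WT and 3 *isp-1;ctb-1* libraries were analysed, each called by the authors against its own input without pooling. According to the methods, reads were aligned with BWA to the Ensembl 93 genome within the QuickNGS pipeline, FastQC 0.10.1 served for quality control and MACS2 2.0.10 for peak calling. Uniquely mapped reads, as stated by the Reporting Summary, were 19.5 to 22.6 M (WT ChIP) and 23.2 to 27.2 M (*isp-1;ctb-1* ChIP). The summary prints 27.2 M under a strain number of neither group, read here as the second mutant replicate. The fold enrichment deposited for each peak is a ratio over input. The deposited p-value is given only for peaks with an EnsemblID, and its null hypothesis was not stated. The authors' table of strain differences, with means, folds and p-values, was not used.

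Distinct peak IDs were counted. Genes and lengths (highest gene end) came from the RefSeq table of WBcel235, and gene starts of X genes in the lists differed from it by a median of 1 bp. The X value minus the pooled value of II to V was taken within each library and tested by a two-sided exact sign-flip permutation over 6 libraries (64 patterns), with Benjamini-Hochberg adjustment over 8 measures. For strain comparisons, a two-sided exact permutation of 3 against 3 libraries was used (20 splits), adjusted over 4 measures. Members and gene lists were chosen with earlier results of these data known. Named regions were the 10 best ranked in all 6 libraries, the 6 best ranked in each strain alone (all libraries of it, none of the other), those at X genes of the study's list of ChIP targets, the 3 widest, those of the 100 kb window with most regions, and those near list members. Exceptions are stated where they occur. Alternatives were a fold over 1.5 with and without a p under 0.05, peaks of 2000 bp or more left out, each library left out, other autosome sets, an overlap of 50% or more, other distances and a replicate block. The chromosome II, IV and V set and the removal of peaks at the mtDNA fold were added after seeing the data. The scripts were tested on simulated peaks. Sequences and motifs were not analysed, since no genome was used here. Python 3.11.15, numpy 2.4.6, pandas 2.3.3, scipy 1.17.1 and matplotlib 3.10.9 were used.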

Additional observations from a re-analysis of the deposited data

Results flagged for a closer look

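Clustering of X peaks moved in opposite directions in the strains when set against chromosomes II, IV and V. Peaks with another peak within 10000 bp were more frequent on X by 6.89, 5.92 and 17.1 points in the WT libraries (mean 9.96) and less frequent by values of -10.2, -6.83 and -2.30 points in the *isp-1;ctb-1* libraries (mean -6.46). Every WT library lay above 0 and every *isp-1;ctb-1* library below it. The exact permutation test of 3 against 3 libraries gave p = 0.1, the smallest it allows. With chromosome III among the autosomes, *isp-1;ctb-1* replicate 3 lay 0.59 points above 0 and the separation by sign was lost.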

How the results depend on the processing

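Of 217 values recomputed under alternatives, 181 kept their direction and side of the threshold, or stayed within 1.5 times for counts, and none of the others passed an adjusted threshold of 0.05. No main value had passed it. Strain comparisons and tests on 5 libraries cannot reach it, so for these only the direction could change. In tests on 6 libraries it was nearly out of reach. A measure alone at the smallest exact sign-flip permutation p of 0.03125 had an adjusted p of 0.25. Most of the measures would have to be at that smallest p together. Staying on 1 side of the threshold is therefore no evidence of stability or of no difference. At a fold over 1.5, the clustering difference was -4.27 points, and 3 X regions were left in all 6 libraries and 11 in both strains. At a fold over 1.5 and a deposited p under 0.05, the log2 density ratio was 0.14, the log2 width ratio 0.73, the middle-segment difference 5.67 points and the strain difference in width 183 bp; X regions numbered 26, with 11 in 1 library, 0 in all 6, 1 in both strains, 3 in all WT libraries alone and 0 in all *isp-1;ctb-1* libraries alone. All peaks then have an EnsemblID, so that share gave no value. Chromosome III then has no peaks while its length stays in the autosomal density, which raises the log2 density ratio. Without peaks at the mtDNA fold, the log2 width ratio was 0.041, clustering -1.98 points, and 2 and 13 regions were in all 6 libraries and in both strains. Clustering was -0.86 points with chromosome I added, and with peaks within 10000 bp counted once the log2 width ratio was 0.021 and the log2 density ratio -0.23. Against II, IV and V alone, the log2 density ratio was 0.0040 and the EnsemblID difference -4.69 points. The difference in the share without a protein-coding gene stayed positive, at 1.63 to 23.0 points.

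Leaving out each library gave log2 density ratios of -0.25 to -0.11, log2 width ratios of -0.084 to 0.029, middle-segment differences of -5.96 to -2.66 points, fold-rank differences of -5.06 to -2.96, recurrence differences of -0.025 to 0.16 libraries, clustering differences of -2.995 to 2.54 points, strain differences (*isp-1;ctb-1* minus WT) of -21.3 to 2.67 X peaks and of -3.90 to -1.20 points of X share, 135 to 176 X regions, 52 to 90 in 1 library, 12 to 26 in all libraries, 14 to 31 in both strains, 9 to 23 in all WT libraries alone and 6 to 16 in all *isp-1;ctb-1* libraries alone. With 5 libraries the smallest exact p is 0.0625.

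The labels give both strains replicate numbers 1 to 3, and nothing says that a number marks a shared batch. Same-numbered libraries had correlations of -0.08, 0.11 and -0.13 in their deviations over 1216 regions, so the numbers were not taken to pair samples. With a replicate block the 4 strain differences were the same, -9.33 X peaks, -2.72 points of share, -89.0 bp of width and 30.1 points of EnsemblID share, with exact permutation p of 1, 0.5, 0.25 and 0.25, where 0.25 is the smallest 3 pairs allow.

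Precision is limited by 53 to 109 X peaks per library, by 3 libraries per strain, which cannot give p below 0.1, and by the deeper sequencing of the *isp-1;ctb-1* libraries.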
